A study of Mus musculus with 18 samples.

Results

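Semaphorins, plexins and neuropilins were followed through the frontal cortex of newborn mice with mutations in 2 retinoid receptor genes. All genes of the count table whose symbol starts with Sema or Plxn were taken, together with Nrp1 and Nrp2, which gave 34 of 54532 genes. They were 20 semaphorin genes, 9 plexin genes, 2 neuropilin genes and 3 antisense RNA genes named after Plxna4 (Plxna4os1, Plxna4os2 and Plxna4os3). After a filter on low counts 33 of the 34 could be tested, all but Plxna4os3.

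Semaphorins are secreted or membrane-bound proteins that steer growing axons, migrating neurons and blood vessels, in many settings by repulsion. Plexins are their receptors, whose cytoplasmic part acts on small GTPases and through them on the cytoskeleton, and neuropilins are the coreceptors that most class 3 semaphorins need to reach A-type plexins. In the developing cortex these proteins are known for roles in the migration of newborn neurons, the path of callosal and corticofugal axons and the shaping of dendrites.

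The dKO mice were double mutants of Rxrg and Rarb, and the other mice were labelled control. The products of these genes, RXR gamma and RAR beta, are nuclear receptors that regulate transcription when retinoic acid is bound. RNA was taken at postnatal day 0 from medial, orbital and dorsal tissue of each genotype, with 3 libraries in each of the 6 groups. The alleles, the strain and the number of animals are not given in the labels, the dissection notes name motor tissue where the labels say dorsal, and p-values therefore measure only the spread between these libraries, which may be partly technical. Titles and index rows divided them into 3 sets, called A, B and C here and numbered as libraries 1, 2 and 3 of a group, each with 1 dKO row and 1 control row of 3 regions.

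Depth was 52317649 to 93093398 counted fragments in set A and 28957325 to 39158792 in sets B and C. Rarb was at 1.19 to 4.85 counts per 1000000 fragments (CPM) in dKO libraries and 3.50 to 13.9 CPM in control libraries, and Rxrg at 0.377 to 2.90 CPM in dKO libraries and 1.64 to 30.5 CPM in control libraries. Both genes were still counted in dKO libraries, and counts over a whole gene do not show whether an altered exon is missing. Xist reached 9.45 to 31.4 CPM where dKO libraries belonged to set A or set C. It was no more than 0.155 CPM elsewhere, which includes every control library. Set B alone therefore compared dKO and control libraries of like Xist level, and the fits of dKO minus control had no term for it. Plxna3 and Plxnb3 lie on the X chromosome.

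Per length of gene model, the most abundant members were membrane-bound ligands and plexins. Sema6b, a class 6 ligand of A-type plexins, averaged 29.0 CPM per kb over the 18 libraries, with a range of 18.1 to 35.2. Sema4c, a class 4 ligand of B-type plexins, averaged 24 CPM per kb (range 15.2 to 30.9), close to Plxnb2, a receptor of Sema4c, at 20.3 (range 7.47 to 36.1) and to Sema6c at 19.97 (range 13.1 to 28.8). The ranges of these 4 genes overlapped, so their order is not firm.

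Next came the A-type plexins and a single secreted ligand. Plxna4, Plxna2 and Plxna1 averaged 13.2, 12.1 and 12.1 CPM per kb, Sema3c averaged 12.0, and Plxna3 averaged 9.66 CPM per kb. Of the coreceptors, Nrp1 averaged 6.92 CPM per kb, with a range of 4.17 to 9.86, and Nrp2 averaged 1.32, with a range of 0.377 to 3.64, so the 2 neuropilin genes did not overlap. Reads on the antisense genes and on Plxna4 cannot be told apart where the models overlap, because counting ignored strand.

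At the low end, Plxnb3, Sema3g and the 3 antisense genes averaged under the level of Sema3e, which stood at 0.383 CPM per kb, and each of these 5 genes had 0 counts in at least 1 library. Spread over libraries was uneven. Sema4f, Sema3f, Sema6b and Sema6a had highest over lowest CPM of 1.84, 1.89, 1.95 and 1.97, while Sema7a, Plxna2 and Sema5a had 18.2, 12.1 and 10.4.

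**Figure D1:**
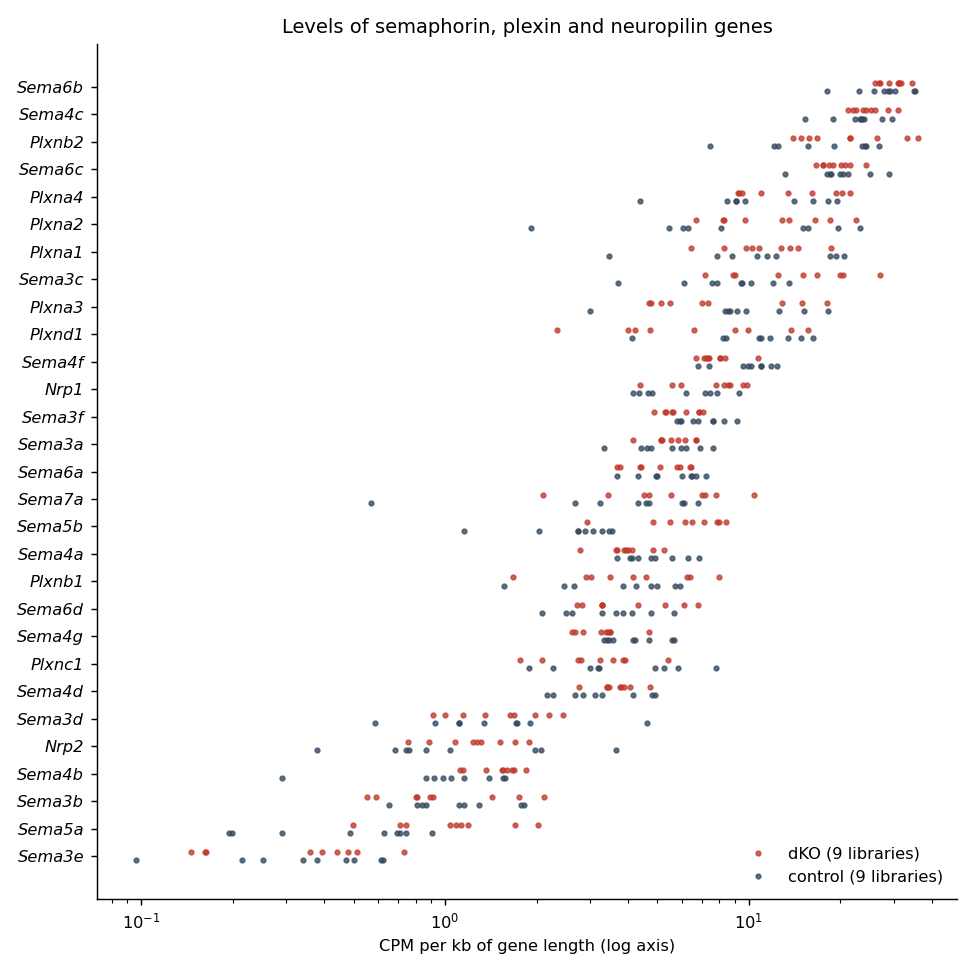
Counts per 1000000 fragments (CPM) per kb of gene model (log axis) for the 29 member genes with counts in every library, ordered by their mean, with each of the 9 dKO libraries in red just above each of the 9 control libraries in grey. Sema6b stood at 18.1 to 35.2 CPM per kb, and Sema3e averaged 0.383.

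The genotype comparison asked which members differed between dKO and control tissue of each region. In medial tissue the class 5 semaphorin gene Sema5b was higher in dKO and the plexin gene Plxnd1 was lower, and these were the 2 members past the threshold (edgeR quasi-likelihood test, adjusted p under 0.05). Of all 18730 genes tested, 2.08% passed, 1.18% higher and 0.897% lower. Over the 33 members the median log2 fold change was -0.21, against 0.00 over all genes tested, and 11 members had a positive and 22 a negative value. By groups, no class 6 semaphorin gene and no A-type plexin gene had a positive fitted value, and both class 5 genes had one. The fitted direction was not that of every set or mean. Plxna2 averaged 189 CPM in dKO and 179 CPM in control medial libraries, with set differences of 1.26, -1.30 and 0.58, and Sema6b averaged 115 CPM in dKO and 110 CPM in control.

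Sema5b encodes a transmembrane semaphorin with thrombospondin repeats that is known in mice to repel retinal axons together with Sema5a. Sema5b was at 55.5, 43.7 and 59.3 CPM in dKO medial libraries, against 8.19, 25.1 and 21.8 CPM in control medial libraries. All 3 dKO libraries lay above all 3 control libraries. The means were 52.8 ± 8.12 CPM in dKO and 18.3 ± 8.95 CPM in control tissue (SD, n = 3 each). This was a log2 fold change of 1.52 (SE 0.315, adjusted p = 0.0220). Within sets the differences were 2.57 in set A, 0.75 in set B, the set of like Xist level, and 1.44 in set C on the log2 scale. Over the alternatives run the adjusted p ranged from 0.000212 to 0.106. The Sema5b call was lost without dKO library 1 (0.106), dKO library 3 (0.0812), control library 1 (0.0534) or control library 3 (0.0555).

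Plxnd1 encodes the receptor of Sema3e, known for vessel patterning and for axon guidance in the forebrain. It was at 17.1, 34.6 and 29.2 CPM in dKO medial libraries, against 30.1, 109 and 80.0 CPM in control medial libraries. The groups overlapped, since control library 1 was below dKO library 2, but dKO was the lower in each of the 3 sets, by -1.01, -1.70 and -1.46 on the log2 scale. Set B, with -1.70, was the set of like Xist level. Of all genes 18% were lower in dKO in all 3 medial sets, whose libraries were not treated as pairs. The means were 26.9 ± 8.99 CPM in dKO and 72.9 ± 39.8 CPM in control tissue (SD, n = 3 each), and the fitted log2 fold change was -1.43 (SE 0.318, adjusted p = 0.0296). Over the alternatives the adjusted p of Plxnd1 ranged from 0.000275 to 0.157. The call was lost without dKO library 1 (0.135), 2 (0.0975) or 3 (0.105), without control library 2 (0.125) or 3 (0.0669), and without the title prefix as a term (0.157).

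In whole tissue, fewer cells of a type and less RNA per cell cannot be told apart. Markers of several cell types differed between the same medial libraries. The 26 cell cycle genes summed to 770 to 1396 CPM in dKO and 397 to 494 CPM in control medial libraries, with 15 of 26 called higher. The 18 genes of radial glia and intermediate progenitors summed to 1923 to 2998 CPM in dKO and 903 to 1552 CPM in control, with 6 of 17 tested called higher and Neurog1 at 0 in the controls. Cortical projection neuron genes summed to 6540 to 7203 CPM in dKO and 7613 to 9619 CPM in control medial libraries, with none of 15 called. Of astrocyte genes 2 of 10 were called higher, and 12 of 12 microglial genes had positive values with none called. Endothelial and pericyte genes summed to 274 to 407 CPM in dKO and 232 to 361 CPM in control medial libraries, with none of 15 called. The part of these cell types in the results for Sema5b and Plxnd1 was not tested.

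The other medial members did not pass. Sema4g and Sema4f, class 4 transmembrane semaphorin genes, had the lowest p among those below control after Plxnd1. Sema4g was at 13, 12.7 and 15.9 CPM in dKO medial libraries, against 16.8, 22.8 and 27.1 CPM in control, with no overlap (log2 fold change -0.74, SE 0.194, adjusted p = 0.0576). Sema4f was at 38.2, 35.5 and 44.1 CPM in dKO and 58.2, 58.0 and 53.6 CPM in control medial libraries, again with no overlap (-0.60, SE 0.169, adjusted p = 0.0771).

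Above control lay Sema3c, a secreted class 3 gene whose product is known to attract cortical axons through Nrp1, and Sema5a. Sema3c was at 192, 120 and 146 CPM in dKO medial libraries, against 72.6, 67.9 and 67.2 CPM in control (1.04, SE 0.376, adjusted p = 0.181). Sema5a was at 37.7, 20.3 and 19.4 CPM in dKO and 5.45, 16.9 and 9.10 CPM in control medial libraries (1.23, SE 0.493, adjusted p = 0.235). Neither gene's groups overlapped, and both were higher in dKO in all 3 sets, although the difference of Sema5a in set B was 0.21 against 2.59 in set A. Of all genes 15.4% were higher in dKO in all 3 medial sets. In all, 4 members (Nrp1, Sema3c, Sema5a and Sema5b) lay wholly above control and 5 (Plxnc1, Sema3f, Sema4a, Sema4f and Sema4g) wholly below it, of 33 tested. Of all 18730 genes 11.7% lay wholly above and 6.47% wholly below control by the same measure.

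**Figure D2:**
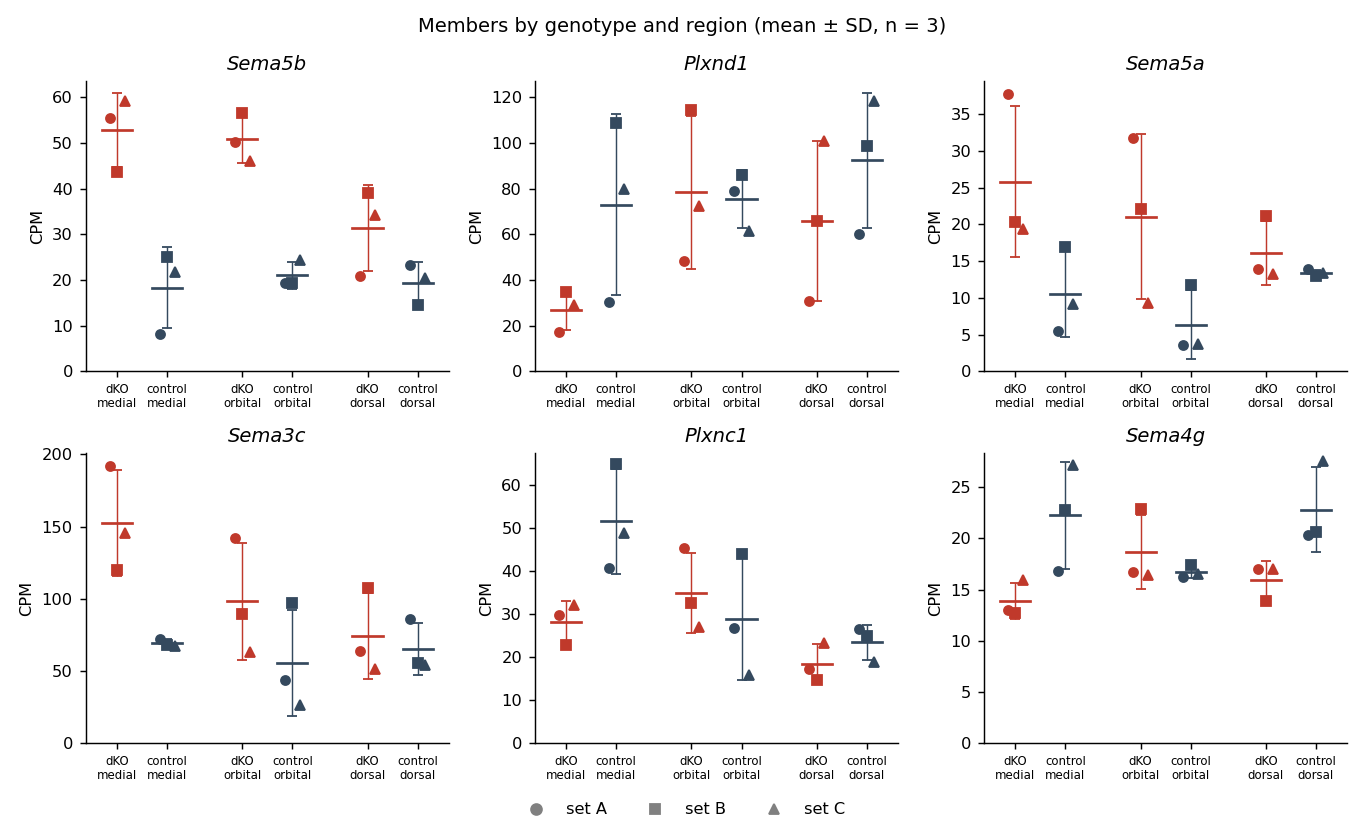
Counts per 1000000 fragments (CPM) of 6 members by region, with dKO (red) left of control (grey), a symbol for each set, a bar at the mean and whiskers of 1 SD (n = 3 each). In medial tissue Sema5b stood at 43.7 to 59.3 CPM in dKO and 8.19 to 25.1 CPM in control libraries, and in orbital tissue the groups were apart as well.

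Promoter sequence is shown for members whose values the genotype and region results turn on, because the mutated genes encode DNA-binding receptors whose half-site is AGGTCA. Each is the 250 bases before the RefSeq gene start on build GRCm38.p6, 5′ to 3′, with matches to AGGTCA or its reverse complement TGACCT in capitals.
Plxnd1 promoter (chr6:115995006-115995255, minus strand): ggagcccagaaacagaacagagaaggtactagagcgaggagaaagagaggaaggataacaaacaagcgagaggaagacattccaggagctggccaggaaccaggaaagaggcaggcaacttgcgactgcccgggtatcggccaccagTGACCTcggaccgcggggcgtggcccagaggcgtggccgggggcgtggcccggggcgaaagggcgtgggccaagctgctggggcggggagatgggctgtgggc
Sema5a promoter (chr15:32244563-32244812, plus strand): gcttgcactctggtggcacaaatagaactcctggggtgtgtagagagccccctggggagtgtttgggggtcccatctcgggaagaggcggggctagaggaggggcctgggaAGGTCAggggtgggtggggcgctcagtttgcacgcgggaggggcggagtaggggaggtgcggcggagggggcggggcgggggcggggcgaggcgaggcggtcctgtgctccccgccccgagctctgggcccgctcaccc
Plxnc1 promoter (chr10:94944846-94945095, minus strand): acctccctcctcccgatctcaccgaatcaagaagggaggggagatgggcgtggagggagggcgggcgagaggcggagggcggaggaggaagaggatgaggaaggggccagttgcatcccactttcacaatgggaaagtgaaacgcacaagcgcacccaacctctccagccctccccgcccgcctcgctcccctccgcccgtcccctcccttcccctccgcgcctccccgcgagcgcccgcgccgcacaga
Plxnd1 held 1 match starting 103 bases before the gene start, Sema5a held 1 match starting 139 bases before it, and Plxnc1 held none. Sema5b's window overlaps the span of its gene in the count table from base 35541145 on, is not printed, and held none. The last bases of the Sema5a window, from base 32244810 on, overlap the span of that gene as well. Of the 26 members with a window, 7 held a match in at least 1 (Nrp1, Plxnb2, Plxnd1, Sema4b, Sema4d, Sema5a and Sema6b), in 7 of 37 windows, against 14.0% of all 32851 windows. Direct repeats of AGGTCA with 1, 2 or 5 bases between were in 0 of the 37 windows. Over all windows they were in 0.0335%, 0.00913% and 0.00913%, so such a repeat was rare in any window. The windows of members were richer in G and C (median 64.0%, against 52.4% over all windows), and a match describes letters, not binding.

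In orbital tissue no member passed (0 of 33, edgeR quasi-likelihood test), where 0.0374% of all genes did, 0.0267% higher and 0.0107% lower in dKO. At an unadjusted p under 0.05 there were 7 members (21.2%, against 13.9% of all genes), and DESeq2 called 2, Sema5a and Sema5b, and 2.3% of all genes. Sema5b was at 50.3, 56.6 and 46.0 CPM in dKO orbital libraries, against 19.3, 19.4 and 24.5 CPM in control orbital libraries. No dKO library came near the controls, and the log2 fold change was 1.27 (SE 0.311, adjusted p = 0.148, range 0.00555 to 0.677 over the alternatives). Of 33 tested members 3 lay wholly above control in orbital tissue, Sema3g, Sema4d and Sema5b, and 30 overlapped. The share of all genes without overlap was not computed for orbital tissue. The cell cycle genes summed to 672 to 1065 CPM in dKO and 510 to 696 CPM in control orbital libraries, with none of 26 called and 25 of 26 positive (median 0.51).

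Sema5a was at 31.7, 22.1 and 9.31 CPM in dKO orbital libraries, against 3.63, 11.7 and 3.71 CPM in control (1.76, SE 0.502, adjusted p = 0.169). It was higher in dKO in each set, although dKO library 3 was below control library 2. Sema4c was 0.43 higher (SE 0.158, adjusted p = 0.245). Of the members below control, the 3 of lowest p were Sema4a (-0.21), Sema3b (-0.39) and Sema3d (-0.43), with adjusted p of 0.656, 0.708 and 0.747. Over the 33 members 25 values were positive, with a median of 0.32, against -0.03 over all genes. Meningeal genes summed to 1128 to 1938 CPM in dKO and 2238 to 2967 CPM in control orbital libraries, and microglial genes to 203 to 303 CPM in dKO and 334 to 401 CPM in control, and their part in the members' values was not tested.

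In dorsal tissue 0 of 33 members passed with edgeR or with DESeq2, where 0.0214% of all genes passed with edgeR, and 2 members had an unadjusted p under 0.05. This was 6.06% of members, against 6.78% of all genes, and DESeq2 called 0.331% of all genes. The 2 were Sema4g (-0.56, adjusted p = 0.538) and Sema4f (-0.45, adjusted p = 0.598). Sema4g was at 17, 13.8 and 17 CPM in dKO dorsal libraries, against 20.3, 20.6 and 27.6 CPM in control, and it was the 1 tested member of 33 whose dorsal groups did not overlap. Over all genes 3.09% lay wholly below and 7.03% wholly above control in dorsal tissue. Sema5b was at 20.8, 39.1 and 34.2 CPM in dKO and 23.3, 14.4 and 20.4 CPM in control dorsal libraries, so that set A went against sets B and C (0.58, SE 0.311, adjusted p = 0.776). Plxnd1 was at 30.8, 65.7 and 101 CPM in dKO and 60.1, 98.5 and 118 CPM in control dorsal libraries (-0.61, SE 0.312, adjusted p = 0.763). Its dKO value was below control in all 3 sets, and the groups overlapped. Of all genes 16.2% were below control in all 3 dorsal sets. Sema3d (0.35) and Nrp1 (0.20) were the members above control of next lowest p, with adjusted p of 0.959 and 0.961.

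**Figure D3:**
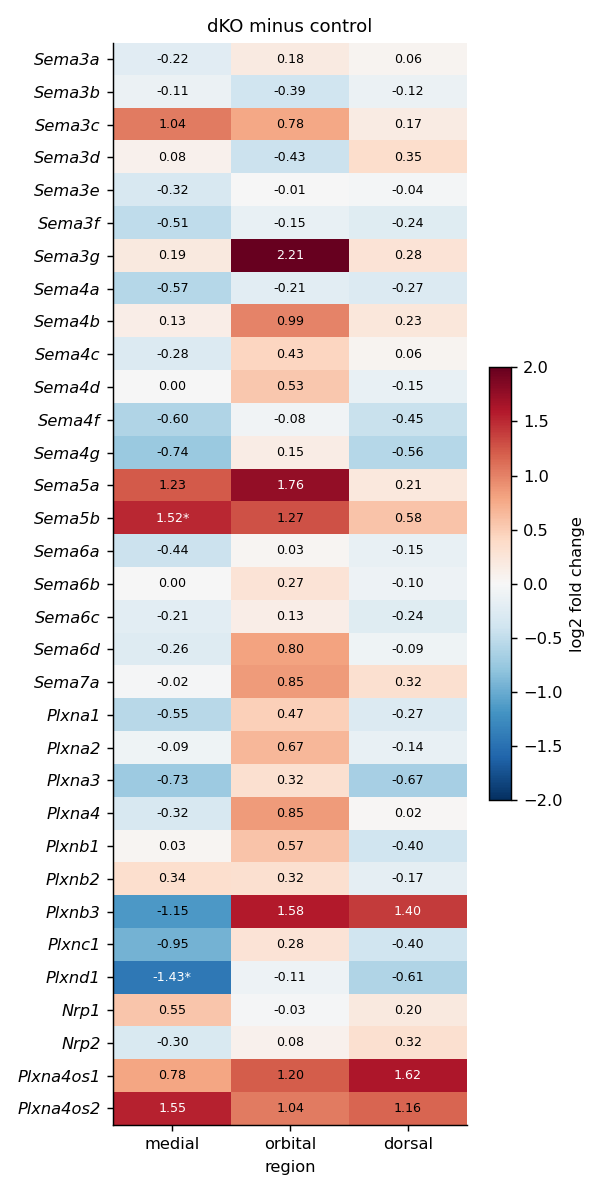
Fitted log2 fold changes, dKO minus control, for the 33 tested members (rows, by family) in medial, orbital and dorsal tissue (columns), with red for higher and blue for lower in dKO. An asterisk marks an adjusted p under 0.05, which only Sema5b (1.52) and Plxnd1 (-1.43) in medial tissue had.

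When counts were added over the 3 regions of each row before the test, Sema5b was higher in dKO by 1.15 on the log2 scale (SE 0.151, adjusted p = 0.162), with set differences of 1.17, 1.26 and 1.04. Here 0.0249% of 20083 genes passed the edgeR test, 0.0199% higher and 0.00498% lower in dKO, and 0 of 33 members did. With DESeq2 Sema5b passed, and it was the 1 member that did, beside 1.79% of all genes. At an unadjusted p under 0.05 there were 18.2% of members and 9.03% of all genes, the 6 members being Sema5b, Sema3c (0.71), Sema5a (1.01), Plxnd1 (-0.60), Sema4f (-0.39) and Sema4g (-0.39). Each of these 6 had the same sign in all 3 sets, which is likely for members chosen by low p in the same libraries. Of the 33 members, 8 were positive and 5 negative in all 3 sets. The share over all genes was not computed for the regions together, so whether these counts stand out is not known.

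The region comparison asked how members differed between regions of the same row. In control mice, 13 of 33 members were lower in orbital than in dorsal tissue and none was higher. Of all genes 9.44% were called lower and 6.39% higher, and the median over members was -0.46 log2, against 0.03 over all genes. The 13 included all 4 A-type plexin genes, the B-type gene Plxnb1, 4 of 6 class 4 genes (Sema4b, Sema4c, Sema4d and Sema4f), 2 of 4 class 6 genes (Sema6b and Sema6c), Sema5a and Sema7a. No class 3 gene and no neuropilin gene passed.

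Plxna2 encodes a receptor of class 6 semaphorins and, with neuropilins, of class 3 semaphorins. It was at 108, 258 and 32.9 CPM in control orbital libraries, against 269, 398 and 139 CPM in control dorsal libraries. Orbital was the lower in each row, although the groups overlapped across rows (log2 difference -1.42, SE 0.251, adjusted p = 0.00385). Plxna1 differed by -1.33 (SE 0.258, adjusted p = 0.00584), Plxna3 by -1.21 (SE 0.217, adjusted p = 0.00407) and Plxna4 by -0.83 (SE 0.222, adjusted p = 0.0229). Control library 3 of orbital tissue was the lowest control value of each of the 4 genes, at 31.4 CPM for Plxna1, 23.6 for Plxna3 and 61.6 for Plxna4.

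**Figure D4:**
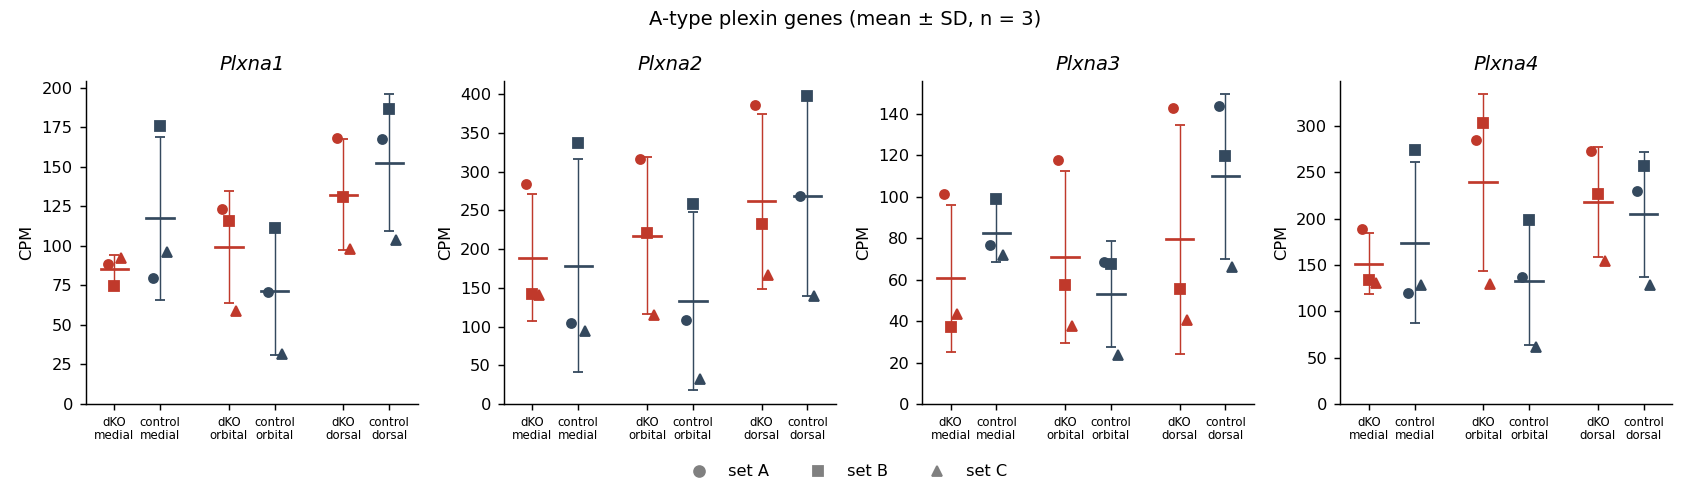
Counts per 1000000 fragments (CPM) of the A-type plexin genes by region, with dKO (red) left of control (grey), a symbol for each set, a bar at the mean and whiskers of 1 SD (n = 3 each). Control orbital tissue of set C was the lowest control library for each gene, with Plxna2 at 32.9 CPM.

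Among ligands, Sema6b was at 114, 91.5 and 71.6 CPM in control orbital libraries, against 140, 139 and 120 CPM in control dorsal libraries, with no overlap (-0.65, SE 0.117, adjusted p = 0.00409). Sema6c was at 118, 110 and 77.9 CPM in orbital and 149, 171 and 121 CPM in dorsal control libraries (-0.64, SE 0.121, adjusted p = 0.00497). Sema4d, a ligand of Plxnb1, was at 16.6, 17.4 and 20.5 CPM in orbital and 32.0, 21.8 and 36.8 CPM in dorsal control libraries (-0.82, SE 0.174, adjusted p = 0.00826). All 3 genes had orbital libraries wholly below dorsal ones, as did Plxnb1, Sema4g and Sema5a. Of 33 tested members, 6 lay wholly below dorsal tissue and 1, Sema3b, wholly above it. The share over all genes was not computed for this comparison, so whether these counts stand out among all genes is not known.

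The remaining calls in this comparison were Sema5a (-1.46), Sema7a (-1.29), Plxnb1 (-1.08), Sema4b (-0.95), Sema4f (-0.59) and Sema4c (-0.46), with adjusted p of 0.0167 to 0.0405. Sema7a encodes the GPI-anchored ligand of Plxnc1. Members above dorsal that did not pass were led by Sema3b (0.60, adjusted p = 0.117), Sema3d (0.56, 0.249), Nrp2 (0.66, 0.284) and Sema3e (0.50, 0.499).

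Several other measures differed between the same control tissues. Cortical projection neuron markers were called lower in orbital tissue for 7 of 15 genes, while meningeal markers were called higher for 8 of 14 and microglial markers for 9 of 12. Cell cycle genes were called higher in orbital tissue for 7 of 26, and genes of radial glia and intermediate progenitors for 6 of 17, with 1 lower. Orbital control library 3 had 13.7% of its fragments in genes with models over 8 kb, the least of the 18 libraries, which otherwise had 16.6% to 22.2%. The part of these in the members' calls was not tested. The count of 13 members fell to 8 without dKO row 1, to 7 without control row 2, to 5 without control row 3 and to 1 (Sema6b) with no block for the row. The share of all genes called fell as well, from 15.8% to 9.83%, 7.42%, 4.77% and 1.74% in the same order.

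Between medial and orbital control tissue 5 members were higher in medial tissue and none lower, where 9.02% of all genes passed, 4.48% higher and 4.54% lower. These were Plxnc1, Sema4d, Plxna3, Sema4c and Plxna1. Plxnc1, the receptor of Sema7a, was at 40.9, 64.9 and 48.9 CPM in control medial libraries, against 26.9, 43.9 and 15.8 CPM in control orbital libraries (0.99, SE 0.236, adjusted p = 0.0224). Medial was the higher in each row. Sema4d differed by 0.72 (adjusted p = 0.0232), Plxna3 by 0.86 (0.0290), Sema4c by 0.51 (0.0386) and Plxna1 by 0.89 (0.0463). The comparison shares its orbital libraries with the one before. The count of 5 members higher in medial tissue fell to 0 without dKO row 1, control row 2, control row 3 or the row block. It fell to 3 without dKO row 2. The share of all genes fell from 9.02% to 3.17%, 3.15%, 3.74%, 0.101% and 6.04% in the same order. Without control row 3 the 1 member past the threshold was Sema3d, lower in medial tissue. Plxna1 no longer passed with DESeq2's size factors in edgeR. With every row in, members higher in orbital tissue did not pass, led by Sema3d (-0.61), Sema3e (-0.79), Sema3b (-0.26) and Nrp1 (-0.21).

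Between medial and dorsal control tissue no member passed with edgeR, where 0.491% of all genes did, 5 members had an unadjusted p under 0.05 (15.2%, against 9.36% of all genes), and DESeq2 called 1 member and 1.84% of all genes. Plxnc1 had the lowest p. It was at 40.9, 64.9 and 48.9 CPM in control medial libraries, against 26.6, 25 and 18.9 CPM in control dorsal libraries, with no overlap (1.09, SE 0.237, adjusted p = 0.0633). Sema6c (-0.38), Plxna2 (-0.75), Sema6b (-0.31) and Sema7a (-0.70) led the members lower in medial tissue, with adjusted p of 0.275 to 0.595. Nrp2 (0.54), Sema3b (0.34) and Sema4c (0.05) followed Plxnc1 among the higher ones, with adjusted p of 0.719 to 0.932.

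**Figure D5:**
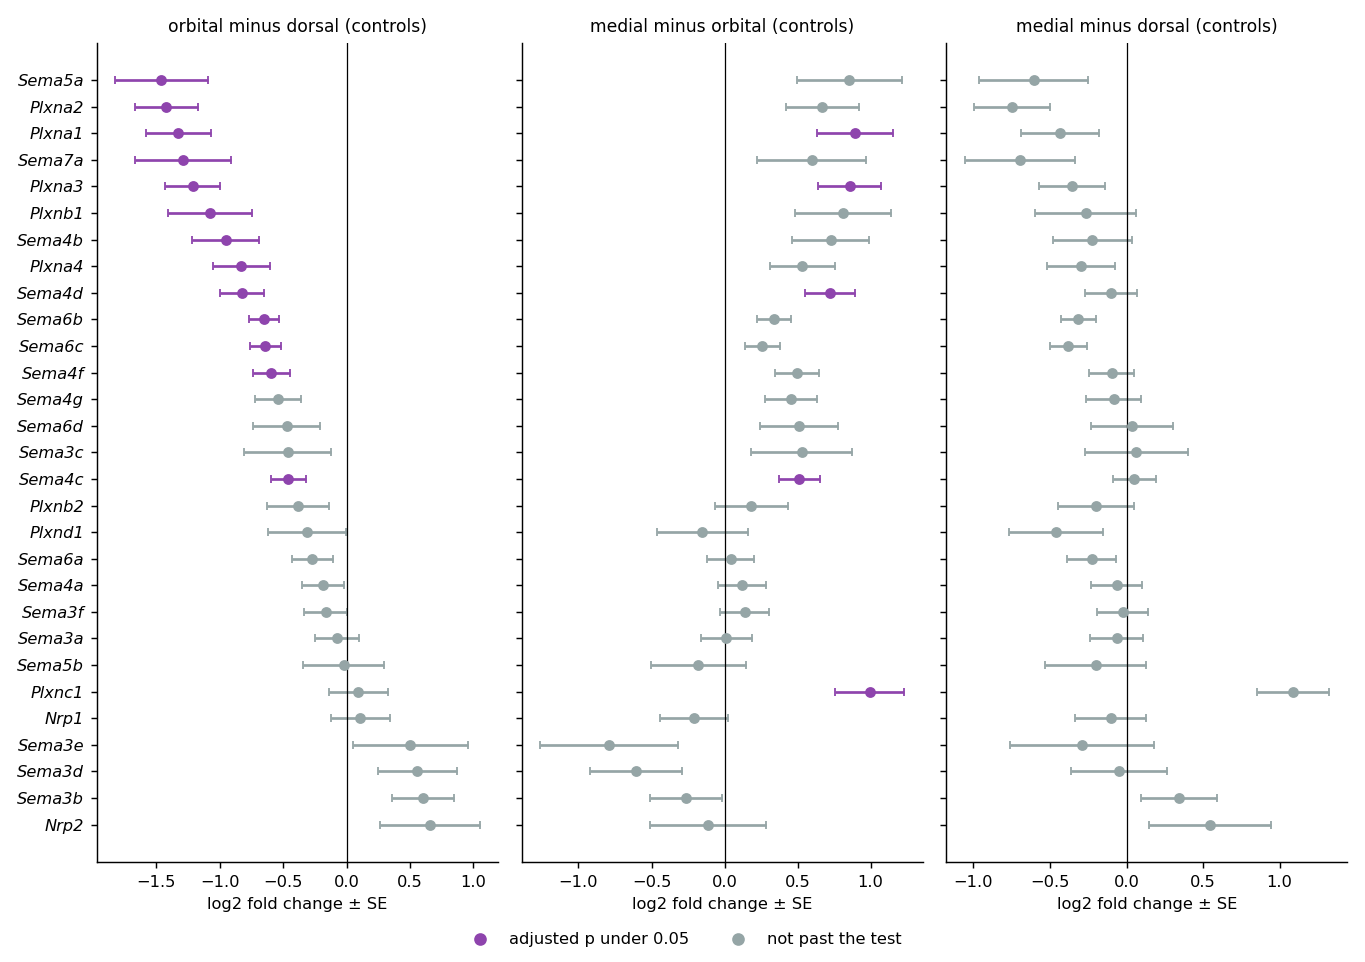
Fitted log2 fold changes between regions in control mice, with bars of 1 SE, for the 29 members with a mean of at least 1 CPM, in purple where the adjusted p was under 0.05. In orbital minus dorsal tissue 13 members lay below 0 in purple, and in medial minus orbital tissue 5 lay above 0.

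In dKO mice no member passed between any pair of regions with edgeR. Between medial and dorsal dKO tissue 2.09% of all genes passed, 0.87% higher and 1.22% lower, 10 members had an unadjusted p under 0.05 (30.3%, against 17.7% of all genes) and DESeq2 called 3, with 6.94% of all genes. Between orbital and dorsal dKO tissue 0.486% of all genes passed, 0.144% higher and 0.342% lower, 3 members had an unadjusted p under 0.05 (9.09%, against 7.26% of all genes) and DESeq2 called 1, with 1.71% of all genes. Between medial and orbital dKO tissue 0.016% of all genes passed, 0.00534% higher and 0.0107% lower, 5 members had an unadjusted p under 0.05 (15.2%, against 7.29% of all genes) and DESeq2 called 1, with 0.774% of all genes. Plxnd1 was at 17.1, 34.6 and 29.2 CPM in dKO medial libraries, against 48.2, 114 and 72.4 CPM in dKO orbital libraries and 30.8, 65.7 and 101 CPM in dKO dorsal libraries. Medial was the lowest of the 3 regions in every dKO row (log2 difference -1.54 to orbital, adjusted p = 0.138, and -1.28 to dorsal, adjusted p = 0.0507).

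Whether the dKO effect itself differed between regions was tested with an interaction. No member passed for medial minus orbital effect with edgeR, where 1.47% of all genes did (0.683% higher, 0.785% lower), 12 members had an unadjusted p under 0.05, and DESeq2 called 7. The shares by these measures were 36.4% of members and 20.6% of all genes with an unadjusted p under 0.05, and 9.03% of all genes with DESeq2. Plxnc1 came nearest. It was at 29.9, 22.8 and 32.0 CPM in dKO medial libraries and 40.9, 64.9 and 48.9 CPM in control medial libraries, and at 45.3, 32.7 and 27 CPM in dKO orbital libraries and 26.9, 43.9 and 15.8 CPM in control orbital libraries. The fitted dKO effect was -0.95 in medial and 0.28 in orbital tissue, and their difference in the fit with rows was -1.32 (SE 0.333, adjusted p = 0.0606, range 0.000369 to 0.345). Sema4c (-0.72, adjusted p = 0.0741) and Plxna4 (-1.13, adjusted p = 0.0768) followed.

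For the orbital minus dorsal effect 0 of 18730 genes passed with edgeR, 13 members had an unadjusted p under 0.05 (39.4%, against 12.6% of all genes), and DESeq2 called 2, with 1.67% of all genes. The lowest p were those of Plxna3 (1.05), Sema5a (1.65) and Plxna2 (1.08), with adjusted p of 0.239 to 0.255. For the medial minus dorsal effect again 0 of 18730 genes passed, 1 member, Sema5a (1.16, adjusted p = 0.920), had an unadjusted p under 0.05 (3.03% of members, against 5.17% of all genes), and DESeq2 called no member and 0.326% of all genes. Sema5b (0.93) and Sema3c (0.94) followed it, both with an adjusted p of 0.9996.

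Genes that act with these receptors were read out from lists of 17 receptor partners, 34 cytoplasmic signalling genes and 5 vascular ligands of neuropilins. In medial tissue 2 of 34 cytoplasmic genes were lower in dKO, Pak3, a kinase downstream of Rac (-0.64, SE 0.137, adjusted p = 0.0261), and Dpysl2, the collapsin response mediator that relays Sema3a signals (-0.71, SE 0.161, adjusted p = 0.0329). Of all genes 0.897% were called lower there. None of the receptor partners or vascular ligands passed there, and in orbital and dorsal tissue 0 of the 56 genes passed (edgeR), of which Dpysl3 in orbital tissue came nearest (0.55, adjusted p = 0.143). Of all genes 0.0374% passed in orbital and 0.0214% in dorsal tissue.

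Between orbital and dorsal control tissue, 7 of 17 receptor partners were lower and 1 higher, and 10 of 34 cytoplasmic genes were lower and 1 higher. Of all genes 9.44% were called lower and 6.39% higher. The adhesion gene Cntn2 had the lowest p (-2.06, SE 0.284, adjusted p = 0.00159), and L1cam, whose product binds Nrp1, differed by -0.90 (adjusted p = 0.0144). Rras, a small GTPase that plexins inactivate, was higher (1.06, adjusted p = 0.00862), as was the microglial gene Trem2 (1.13, adjusted p = 0.0115). The lymphatic growth factor gene Vegfc was the 1 of 5 vascular ligands that passed (-1.05, adjusted p = 0.00969). In the interaction of medial and orbital tissue Dpysl3 (-0.97, adjusted p = 0.0269) and Trem2 (1.89, adjusted p = 0.0303) passed, beside 1.47% of all genes.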

How the data were processed

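Raw counts of fragments per gene were deposited for whole-transcript libraries of newborn mouse frontal cortex. Per the file headers, the authors counted read pairs with featureCounts 1.6.2 without regard to strand, with GRCm38 gene models of Ensembl 94. STAR 2.6 was the aligner, per the submitters' processing notes. The gene lengths per kb used here come from the same deposited table. Another 6 per-sample columns matched no sample and were not used. Symbols were matched to GENCODE for 54495 of 54532 genes. Members, lists and named genes were chosen with earlier results of these data known. Counts per 1000000 fragments (CPM) were computed here over all counted fragments.

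The tests were edgeR 4.0.16 quasi-likelihood tests (R 4.3.3) after TMM scaling and filterByExpr at its limits of 10 counts and 15 in total, with Benjamini-Hochberg adjustment over all genes tested in a comparison and a threshold of 0.05. Fold changes of dKO over control came from 6 group means and the title prefix, or from rows summed over regions. Region differences and interactions had the row as a block, because the 3 regions of a row deviated together (correlations of 0.20 to 0.65). Within a set, dKO and control were compared as log2 CPM, a prior count of 2 being added. Named members were those past the threshold in any of the 13 comparisons, and per comparison those of lowest p that averaged 1 CPM or more (3 per direction for dKO, 4 per direction for control regions, 3 for each interaction). Other members are named for their level, their family's count, an overlap or a motif, and were chosen after their values were seen. Replicates of a group differed by far more than sampling noise (chi-square per degree of freedom of 37.9 to 172), so each counted as 1 sample. Each result was also computed with DESeq2 1.42.0, with other size factors, without the filter, with other block or prefix terms and without each library or row. The fits were tested on simulated data. Figures were drawn with matplotlib 3.10.9.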

Additional observations from a re-analysis of the deposited data

How the results depend on the processing

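Counts of members past the threshold moved in most comparisons without the filter on low counts and with DESeq2. Without the filter there were 4 for dKO minus control in medial tissue, 2 in orbital tissue and 1 with regions summed. With DESeq2 these were 4, 2 and 1. The shares of all genes were 1.62%, 0.35% and 0.186% without the filter, and 5.98%, 2.3% and 1.79% with DESeq2. In control mice, no filter gave 2 for medial minus dorsal and 11 for medial minus orbital tissue, and DESeq2 gave 1 and 9. Here 1.02% and 7.25% of all genes passed without the filter, and 1.84% and 15.5% with DESeq2. In dKO mice, no filter gave 7 for medial minus dorsal, 1 for orbital minus dorsal and 2 for medial minus orbital tissue, and DESeq2 gave 3, 1 and 1. All genes passed at 3.35%, 0.972% and 0.565% without the filter, and at 6.94%, 1.71% and 0.774% with DESeq2. For the difference of the dKO effect, no filter gave 6 for orbital minus dorsal and 10 for medial minus orbital tissue, and DESeq2 gave 2 and 7. Shares of all genes there were 1.66% and 4.59% without the filter, and 1.67% and 9.03% with DESeq2. The cause was not tested. Other size factors moved no count of members by over 1.5 times.

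Without the prefix term 1 member passed in medial tissue, beside 0.833% of all genes. The replicate block of sets gave 3 members there (Plxnd1, Sema4g and Sema5b), beside 3.53% of all genes. Same-numbered dKO and control libraries share a title prefix, but the labels name no shared animal or batch and their deviations correlated by -0.07 to 0.32, so they were not treated as pairs. With no replicate block for the row, the control counts were 1 for orbital minus dorsal and 0 for medial minus orbital tissue. Of all genes 1.74% and 0.101% passed.

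Leaving out 1 library or row gave 0 to 1 members for dKO minus control in medial tissue, 5 to 12 for orbital minus dorsal and 0 to 7 for medial minus orbital tissue in control mice, 0 to 1 for medial minus dorsal and for medial minus orbital tissue in dKO mice, and 0 to 9 for the medial minus orbital dKO effect. Of all genes 0.347% to 1.87% passed for dKO minus control in medial tissue. For control mice the shares were 4.77% to 13.2% in orbital minus dorsal and 3.15% to 7.26% in medial minus orbital tissue. For dKO mice they were 0.154% to 4.28% in medial minus dorsal and 0% to 0.125% in medial minus orbital tissue. The medial minus orbital dKO effect had 0% to 7.69%. Some members that did not pass changed sign. Over the libraries left out, Sema3d in orbital tissue ranged from -0.80 to 0.42, the last without control library 2, and Nrp1 in dorsal tissue from -0.016, without dKO library 2, to 0.42. In medial minus dorsal control tissue Nrp2 ranged from -0.0096 to 1.21 and Sema3b from -0.014 to 0.70, both lowest without control row 3, and Sema4c from -0.11, without control row 2, to 0.20. In medial minus orbital control tissue Sema3b ranged from -0.43 to 0.042, the last without control row 1. Sets B and C were less deep than set A, and what depth limits was not tested.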
